A study of Homo sapiens with 3 samples.

Results

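The chaperonin containing TCP1 (CCT, also called TRiC) was examined through the genes of its subunits in H9 cells, an established human embryonic stem cell line. The genes were chosen by name: TCP1, CCT2, CCT3, CCT4, CCT5, CCT6A, CCT6B, CCT7 and CCT8, which are 9 of the 58051 genes with counts. The cells were wild type and untreated, plates were coated with Vitronectin-XF and the medium was Essential 8 Flex. Total RNA from 3 replicates was sequenced after removal of ribosomal RNA. There is 1 condition, so that levels, their order and their spread between replicates are reported, and no effect of a treatment could be tested. Nothing in the labels says that the replicates came from separate cultures, so the spread between them may be technical.

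CCT is a cytosolic folding machine made of 2 rings stacked back to back. Each ring holds 8 different subunits, 1 copy of each, and unfolded proteins are enclosed in the cavity of a ring, where cycles of ATP binding and hydrolysis drive their folding. Actin and tubulin are its best known clients, and proteins with WD40 propellers, among them the cell cycle regulator CDC20 and the G protein beta subunits, also need it. The subunits differ in their use of ATP: work on the yeast complex places TCP1, CCT3, CCT6 and CCT8 on the side of the ring with weak ATP binding, and CCT2, CCT4, CCT5 and CCT7 on the side with strong ATP binding. Mammals have a pair of genes for the CCT6 position, CCT6A, used in somatic tissues, and CCT6B, known as the testis form.

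Totals of 8655155 to 12024802 reads were counted on genes per replicate. Reads per gene were divided by the summed length of the gene's exons and scaled to a common sum (TPM, a level per transcript length), so that levels of different genes can be compared. All 7 pluripotency markers examined were at 275 TPM or above, none of the 11 lineage markers was in the high class of expression defined below, and the highest of these, MIXL1, was at 22.3 ± 5.66 TPM (SD, n = 3). Of 6 fibroblast markers, THY1, which pluripotent cells also carry, was at 145 ± 11.2 TPM and in the high class. The collagen genes COL1A2, at 25.6 ± 1.67 TPM, and COL1A1, at 14.6 ± 1.43 TPM, were in the medium class, and COL3A1, LUM and DCN were in the low class, at 2.71, 0.178 and 0.0985 TPM.

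Reads can be credited to the wrong gene where copies are alike, and the coding sequences of the subunits were therefore compared first. CCT6A and CCT6B were 80.7% identical over 1590 aligned coding bases, and their longest identical run was 29 bases. The other 35 pairs of subunits were 61.6% to 68.3% identical, with a median of 65.4%, and shared no identical run longer than 17 bases. CCT6A also has the transcribed pseudogenes CCT6P1 and CCT6P3 on the same chromosome, which were 94.7% and 95.2% identical to its transcript over 1536 and 1377 aligned bases. A stretch of 60 bases in exon 3 of CCT6A, which starts at coding base 202, was compared with the copies. This stretch was the first in the coding sequence that aligned without gaps within 1 exon of every copy. It is more alike than the copies are over their whole aligned length, and so understates how far they can be told apart. It is given with the matching stretches of the copies, 5′ to 3′ on the strand of each gene in GRCh38, and capitals mark bases that differ from CCT6A.
CCT6A (chr7:56054369-56054428, plus strand): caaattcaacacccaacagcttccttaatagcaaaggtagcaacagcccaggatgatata
CCT6B (chr17:34958635-34958694, minus strand, exon 3): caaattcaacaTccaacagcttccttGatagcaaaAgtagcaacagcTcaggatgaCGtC
CCT6P1 (chr7:65754527-65754586, plus strand, exon 3): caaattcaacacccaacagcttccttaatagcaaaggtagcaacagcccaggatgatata
CCT6P3 (chr7:65064999-65065058, plus strand, exon 1): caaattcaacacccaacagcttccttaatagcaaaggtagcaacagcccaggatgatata
CCT6B differed from CCT6A at 7 of these 60 bases, and both pseudogenes differed at 0. The longest run that CCT6A shared with either pseudogene was 80 bases, and a read lying within such a run cannot be assigned by its sequence.

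The level of each subunit was then determined, starting with the side of the ring with weak ATP binding. CCT3 (ENSG00000163468, chromosome 1, 156308968 to 156367873, minus strand), the gamma subunit, received 5927, 7173 and 4670 reads in replicates 1, 2 and 3. These gave 589, 613 and 545 TPM, a mean of 582 ± 35.0 TPM (SD, n = 3). It was the highest of the 9 genes in every replicate. TCP1 (ENSG00000120438, chromosome 6, 159778498 to 159789703, minus strand) encodes the alpha subunit, after which the complex is named. Its counts of 5908, 6922 and 4543 gave 465, 468 and 419 TPM, a mean of 451 ± 27.4 TPM. CCT6A (ENSG00000146731, chromosome 7, 56051685 to 56063989, plus strand), the somatic zeta subunit, received 5107, 6146 and 4061 reads, or 510, 528 and 476 TPM, with a mean of 505 ± 26.6 TPM. CCT8 (ENSG00000156261, chromosome 21, 29055805 to 29073797, minus strand), the theta subunit, received 4306, 5222 and 3399 reads, or 495, 516 and 458 TPM, with a mean of 490 ± 29.4 TPM. In all 4 genes replicate 2 was the highest and replicate 3 the lowest.

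On the side with strong ATP binding, CCT4 (ENSG00000115484, chromosome 2, 61868085 to 61888671, minus strand), the delta subunit, received 3565, 4234 and 2920 reads. Its 507, 518 and 487 TPM, with a mean of 504 ± 15.7 TPM, varied least between replicates. CCT7 (ENSG00000135624, chromosome 2, 73233420 to 73253021, plus strand), the eta subunit, received 4419, 5333 and 3556 reads, or 474, 492 and 447 TPM, with a mean of 471 ± 22.5 TPM. CCT2 (ENSG00000166226, chromosome 12, 69585426 to 69601570, plus strand), the beta subunit, received 4736, 5605 and 3697 reads, or 430, 438 and 394 TPM, with a mean of 421 ± 23.5 TPM. These genes again had their highest value in replicate 2 and their lowest in replicate 3. CCT5 (ENSG00000150753, chromosome 5, 10249929 to 10266389, plus strand), the epsilon subunit, received 5883, 7061 and 4523 reads, close to the counts of CCT3. Its exons are the longest, at 5638 bases, and the counts gave only 401, 414 and 361 TPM, a mean of 392 ± 27.3 TPM. CCT5 was the lowest of the 8 genes other than CCT6B in every replicate.

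**Figure D1:**
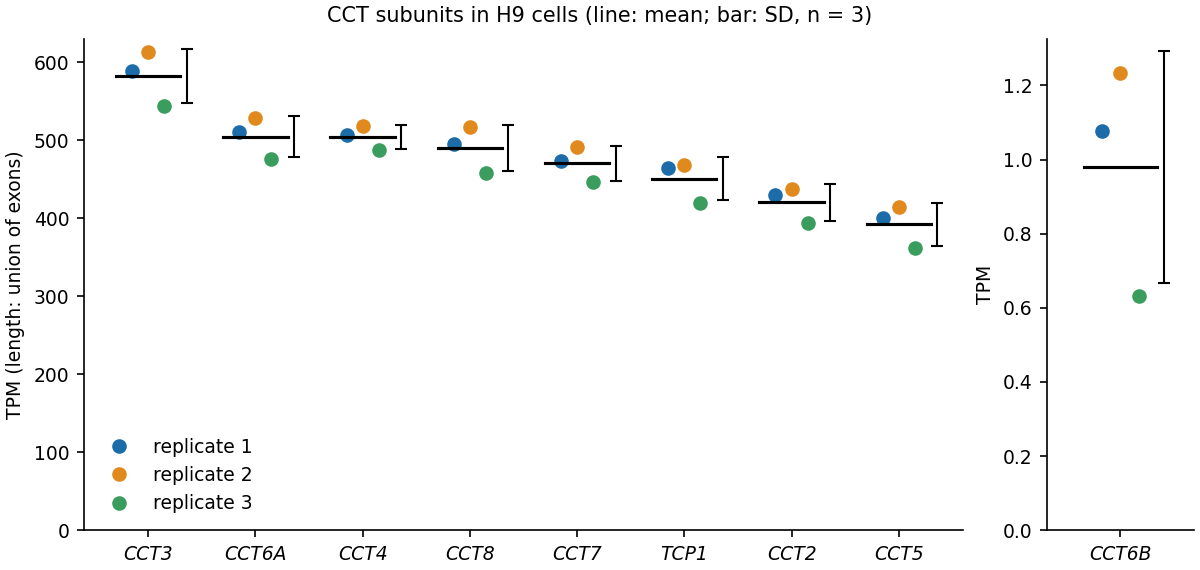
Levels of the CCT genes in TPM (y axis, linear, from 0) in each of the 3 replicates (points), with the mean (line) and SD (bar, n = 3); genes are ordered by mean and CCT6B has an axis of its own. The 8 genes on the left lie between 361 and 613 TPM, with replicate 3 lowest for each, and CCT6B lies between 0.631 and 1.23 TPM.

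CCT6B (ENSG00000132141, chromosome 17, 34927859 to 34981078, minus strand) stood apart from the other subunits. It received 12, 16 and 6 reads, or 1.08, 1.23 and 0.631 TPM, a mean of 0.980 ± 0.313 TPM (SD, n = 3). The 34 reads in all have an exact 95% Poisson interval of 23.5 to 47.5, which covers counting error only. CCT6A was 474, 428 and 754 times higher than CCT6B in replicates 1, 2 and 3, and CCT6B was at 0.192 ± 0.0530% of the level of CCT6A. With the canonical transcript as gene length this was 0.300 ± 0.0826%. On the log2 scale CCT6B lay 8.70 ± 0.41 below CCT5, the next gene in the order. In bulk RNA, few cells with CCT6B transcripts and a low level in all cells cannot be told apart.

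Markers of testis germ cells were examined beside CCT6B, and none was in the high class defined below. Of 10 such genes, 5 had no read in any replicate (STRA8, PRM1, PRM2, TNP1 and SPACA1), and the highest were the acrosomal gene ACRV1 at 4.43 ± 1.33 TPM and the synaptonemal complex gene SYCP3 at 4.18 ± 1.40 TPM, both in the medium class. DAZL, a germ cell RNA-binding protein gene, had 17, 30 and 34 reads, more than CCT6B. Some reads listed for CCT6B may belong to a neighbor: 180 bases of its exons (4.20%) overlap the DNA ligase gene LIG3 on the opposite strand. LIG3 received 455 reads per kilobase of exon and CCT6B 7.93, and whether the counting used strand is not given in the sources used here. The part of LIG3 in the count of CCT6B was not tested.

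Classes were formed after the scheme of the study, here with TPM from the counts and over protein-coding genes alone. Genes under 0.01 TPM were set aside, and the remaining genes formed 3 quantiles, low, medium and high, with bounds at 3.35 and 27.0 TPM. The high class held 28.8% of the 19629 protein-coding genes. It held 8 of the 9 CCT genes, both by their mean and in each replicate, and CCT6B was in the low class. Between 98.5% (CCT5) and 99.2% (CCT3) of protein-coding genes had a lower mean than each of the 8, and 32.5% had a lower mean than CCT6B. Together the 8 genes took 39851, 47696 and 31369 reads, which were 0.384%, 0.397% and 0.362% of the counts of replicates 1, 2 and 3.

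As each ring holds 1 copy of each subunit, the 8 genes were compared with one another. The highest and lowest differed by 1.49 ± 0.0186 times (SD, n = 3), and the coefficient of variation over the 8 genes was 12.3 ± 0.506%. CCT3 supplied 15.3 ± 0.107% of their summed TPM and CCT5 10.3 ± 0.168%. The shares of TCP1, CCT7, CCT8, CCT4 and CCT6A ran from 11.8 ± 0.171% to 13.2 ± 0.0440%, and that of CCT2 lay between those of CCT5 and TCP1. These shares varied less between replicates than the levels did.

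Neighbors in the order of levels were compared by their log2 ratio within each replicate, and said to differ beyond their spread where the sign was the same in all 3 replicates and the mean was over 2 SD. With 3 replicates an exact sign-flip test cannot go below p = 0.25, so that no p-value is attached to the order. CCT3 lay above CCT6A by 0.21 ± 0.01 on the log2 scale. CCT6A, CCT4 and CCT8 followed, and neither CCT6A and CCT4 nor CCT4 and CCT8 differed beyond their spread, with differences of 0.00 ± 0.03 and 0.04 ± 0.04. CCT8 lay above CCT7 by 0.06 ± 0.02. CCT7 and TCP1 did not differ beyond their spread, at 0.06 ± 0.03. TCP1 lay above CCT2 by 0.10 ± 0.01, and CCT2 above CCT5 by 0.10 ± 0.02.

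Most of this order depended on the length by which reads were divided. The summed exons of a gene include exons of rare transcripts, and the Ensembl canonical transcript and the longest transcript were therefore used in their place. CCT3 was the highest and CCT6B the lowest under all 3 lengths, and no other gene kept its place under either transcript length. CCT4 moved furthest, from a place beside CCT6A at 504 ± 15.7 TPM to the lowest of the 8 at 346 ± 9.48 TPM with the canonical transcript and 431 ± 12.2 TPM with the longest. Its 4 annotated transcripts add few exons, and its summed exons (2701 bases) exceed its canonical transcript (2376 bases) by little, whereas those of TCP1 (4883 and 2352 bases) and CCT2 (4230 and 1916 bases) exceed theirs by far more. TCP1, sixth by summed exons, came next to CCT3 under both transcript lengths, with 565 ± 32.2 and 704 ± 40.7 TPM. The highest gene then exceeded the lowest of the 8 by 1.99 ± 0.0580 times with the canonical and 1.92 ± 0.0560 times with the longest transcript. Which transcripts of each gene the cells use was not measured.

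**Figure D2:**
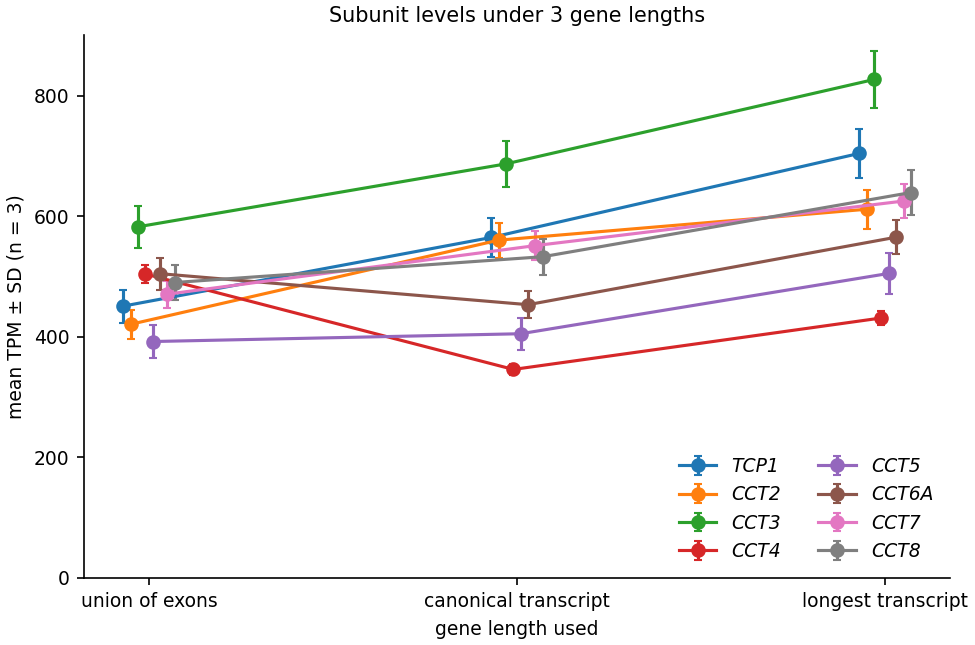
Mean TPM (y axis, linear, from 0) of the 8 CCT genes other than CCT6B when counts are divided by the union of exons, the canonical transcript or the longest transcript (x axis); bars are the SD over 3 replicates. CCT3 is highest at each length, CCT4 falls from 504 to 346 TPM between the first and second, and the lines of the other genes cross.

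The sides of the ring were summed separately, a comparison chosen after the values had been seen. TCP1, CCT3, CCT6A and CCT8, the side with weak ATP binding, held 53.1 ± 0.214% of the summed TPM of the 8 genes (SD, n = 3). Per replicate their sum was 2059, 2126 and 1898 TPM, against 1811, 1861 and 1689 TPM for CCT2, CCT4, CCT5 and CCT7. The side with weak ATP binding was higher in all 3 replicates and under all 3 lengths, at 54.6 ± 0.169% with the canonical and 55.7 ± 0.168% with the longest transcript. The sides overlapped gene by gene under each length. With summed exons TCP1, on the weak side, lay below CCT4 and CCT7. With the canonical and with the longest transcript CCT6A, also on the weak side, lay below CCT2 and CCT7.

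Genes of 3 other complexes with fixed stoichiometry were set beside the 8 CCT genes. Prefoldin is the hexamer that hands unfolded actin and tubulin to CCT. Its 6 genes ranged from 55.4 TPM (PFDN6) to 191 TPM (PFDN2), and the median of the CCT genes, 480 TPM, was 5.61 ± 0.191 times theirs (SD, n = 3). The 14 genes of the 20S proteasome core, which degrades proteins, ranged from 5.75 TPM (PSMA2) to 445 TPM (PSMA7), and the CCT median was 2.07 ± 0.0359 times their median. The 6 genes of the MCM2-7 replicative helicase ranged from 190 TPM (MCM5) to 539 TPM (MCM3), and the CCT median was 1.74 ± 0.0410 times theirs. The CCT genes were thus above each of these complexes by median, but not gene by gene, since MCM3 exceeded 7 of the 8 CCT genes.

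The spread among genes of a complex was also compared as a description, since genes are not replicates. The coefficient of variation of mean TPM was 12.3% over the 8 CCT genes, 47.9% over prefoldin, 72.8% over the 20S core and 41.3% over MCM2-7. The highest gene of each exceeded the lowest by 1.49, 3.44, 77.3 and 2.84 times, respectively. Over the gene next to the lowest, the factors were 1.38, 2.57, 24.1 and 2.24. In the 20S core, PSMA1, PSMA2 and PSMA6 were below all other genes, at 31.6, 5.75 and 18.5 TPM. Whether exons of the 20S core genes overlap other genes was not examined. With the canonical transcript as length the coefficients were 20.9%, 63.9%, 73.1% and 41.4%, and with the longest transcript 19.7%, 28.3%, 72.9% and 37.5%. The CCT genes had the lowest of the 4 under each length, although the distance to prefoldin was smaller with the longest transcript. The complexes differ in number of genes, and no test was made of these differences.

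**Figure D3:**
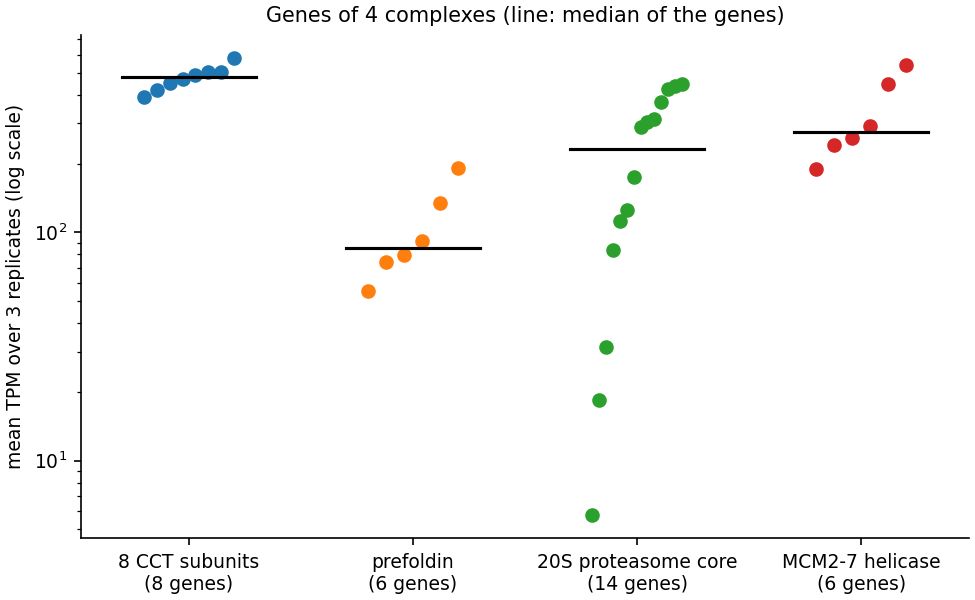
Mean TPM over 3 replicates (y axis, log scale) of each gene (points) of CCT without CCT6B, prefoldin, the 20S proteasome core and the MCM2-7 helicase, with the median of each (line). The CCT genes lie between 392 and 582 TPM, whereas the 20S core reaches from 5.75 to 445 TPM.

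Among cofactors of CCT, the phosducin-like genes PDCL, PDCL3 and TXNDC9, whose proteins bind the complex and adjust its folding of clients, were at 41.6 ± 3.95, 60.9 ± 6.42 and 44.5 ± 2.50 TPM (SD, n = 3). All 3 were in the high class, and the remaining one, PDCL2, known from male germ cells, had 0, 1 and 1 reads. The chaperonin-like genes of Bardet-Biedl syndrome, whose proteins work with CCT to assemble the BBSome of the primary cilium, were lower: MKKS was at 21.2 ± 1.97 TPM, BBS10 at 17.2 ± 0.441 TPM and BBS12 at 4.27 ± 0.688 TPM, all in the medium class. CCT8L2, a CCT8-like gene, had 0, 1 and 0 reads.

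The mitochondrial chaperonin HSPD1 was at 640 ± 41.7 TPM, above CCT3, and its lid HSPE1 at 145 ± 3.15 TPM. HSPE1 lies within the annotated span of HSPD1, and whether this affected their counts was not tested. The cytosolic chaperones HSPA8, HSP90AA1 and HSP90AB1 were higher than all CCT genes, at 1689 ± 136, 1709 ± 161 and 3964 ± 252 TPM. The stress-inducible HSPA1A and HSPA1B, which are near-identical copies with uncertain counts, were at 20.2 ± 2.27 and 40.7 ± 0.457 TPM. Of the heat shock factors, which control many chaperone genes, HSF1 was at 47.0 ± 5.86 TPM and HSF2 at 25.3 ± 1.54 TPM.

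Of 12 actin and tubulin genes, 11 were in the high class. Their levels ran from 7.56 ± 1.08 TPM for the neuronal tubulin TUBB3 to 4428 ± 152 TPM for ACTB. ACTG1 was at 3352 ± 115 TPM, TUBB at 2493 ± 102 TPM and TUBA1B at 971 ± 62.1 TPM. These 4 genes exceeded each CCT gene in every replicate. Actins and tubulins are families of similar genes with pseudogenes, and their counts are uncertain to that extent. Of 8 WD40 clients, 6 were in the high class, led by CDC20 at 353 ± 18.4 TPM and GNB1 at 206 ± 7.18 TPM, and GNB5 was the lowest at 8.71 ± 0.363 TPM. All of these clients were below the lowest of the 8 CCT genes by mean. The 5 other protein-coding genes closest to the mean of the 8, by distance of log2(TPM + 1) over the 3 replicates, were MAPRE1, HMGCS1, SLC38A2, TXN and PPIA, at distances of 0.0432 to 0.0812. Their likeness is one of level over 3 libraries of a single condition.

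The stability of the subunits between replicates was then assessed by a chi-square test of each gene's counts against the library totals, over 18451 genes with at least 20 reads. The test compares these libraries, not conditions. After Benjamini-Hochberg adjustment, 10.9% of all genes differed between the libraries beyond counting error, and 7 of the 9 CCT genes did. The deviations were largest for CCT5, with a chi-square per degree of freedom of 18.9 (adjusted p = 3.8e-07), and smallest among the 7 for CCT7, at 6.43 (adjusted p = 0.020). CCT4, at 1.67 (adjusted p = 0.47), and CCT6B, at 0.960 (adjusted p = 0.66), did not pass. Deep genes pass such a test more readily: of the 659 genes with 2500 to 7500 reads per replicate on average, 52.0% passed, and their median chi-square per degree of freedom was 5.40, against 9.75 for the 8 CCT genes.

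The size of these deviations was small. In replicate 3, the 8 genes lay below the mean of the other replicates by -0.14 (CCT5) to -0.04 (CCT4) in log2 CPM (reads scaled to the library total), each of them under the median of 0.00 over 9980 genes with at least 100 reads in every replicate. In replicate 2 they lay above, by 0.05 (CCT4) to 0.11 (CCT5), and in replicate 1 between -0.01 (CCT4) and 0.05 (TCP1). All 8 were therefore above the other replicates in replicate 2 and below them in replicate 3. The deviations of a gene are not independent, since a low value in one replicate raises the deviations of the others. The SD of the deviation over all genes was 0.18 in replicate 3 and 0.12 in replicate 2, and the 8 genes were within the 5th to 95th percentile of all genes in each replicate. Between replicates, the TPM of the 8 genes had a median coefficient of variation of 5.80%, against 5.03% over the 5656 genes of the high class.

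Exon GC content was examined beside these deviations. The exons of the 8 genes had 40.7% (CCT6A) to 49.8% (CCT7) GC, and in replicate 3 the 3978 genes of like GC content had a median deviation of -0.04, against -0.11 for the 8. Among the 8 genes themselves, the rank correlation of GC content with the deviation in replicate 3 was weak (Spearman's rho = -0.21, over 8 genes of the same libraries). After correction of the counts for exon GC content, the deviations of the 8 genes in replicate 3 had a median of -0.06 in place of -0.11 and ranged from -0.09 (CCT5) to 0.00 (CCT4). With library sizes corrected in this way, 2 of the 9 genes (CCT3 and CCT5) and 6.38% of all genes differed between the libraries. At an unadjusted chi-square p under 0.05, 6 of the 9 and 17.8% of all genes differed after this correction. Without replicate 3, 0 of the 9 genes and 1.33% of all genes differed by the chi-square test, and 5 of the 9 and 10.9% of all genes did so at an unadjusted p under 0.05. Without replicate 2, 4 of the 8 genes other than CCT6B (TCP1, CCT2, CCT3 and CCT5) and 10.7% of all genes differed. CCT6B then had under 20 reads and was not tested. Without replicate 1, 7 of the 9 genes and 9.26% of all genes differed. Replicate 3 was also the shallowest library, and the part of depth in its deviation was not tested.

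**Figure D4:**
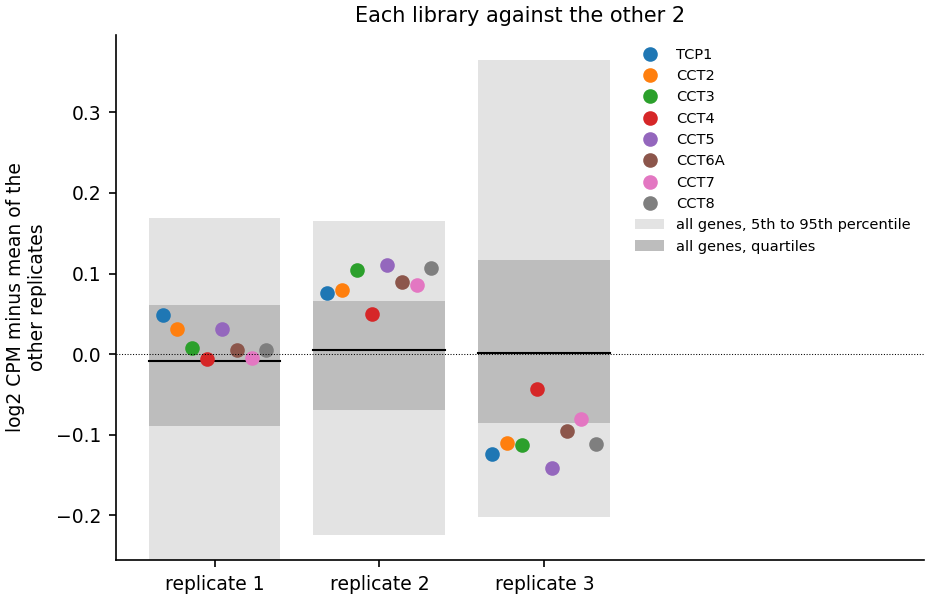
Deviation of each CCT gene other than CCT6B (points) in each replicate, as log2 CPM minus the mean of the other replicates (y axis), over the quartiles (dark bars) and the 5th to 95th percentile (light bars) of 9980 genes, whose median is the black line. In replicate 3 all 8 points are below that line, from -0.14 to -0.04, and in replicate 2 all are above it, from 0.05 to 0.11.

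Pseudogenes took few reads. Of 14 annotated pseudogenes named after a subunit, 8 had no read, and all 14 together had 104, 137 and 94 reads, or 0.283 ± 0.0198% of the reads of the 8 genes (SD, n = 3). CCT6P3 had 50, 89 and 47 reads (16.8 ± 3.91 TPM) and CCT6P1 had 47, 44 and 40 reads (10.9 ± 1.31 TPM). Both pseudogenes exceeded CCT6B, the functional paralog of CCT6A, in reads and in TPM in every replicate. As shown above, stretches of both are identical to CCT6A, and the part of CCT6A reads in their counts was not tested. CCT8P1, 96.5% identical to CCT8, had 5, 3 and 4 reads, and no other pseudogene had 10 reads or more.

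Exons of some subunits overlap genes on the opposite strand. Of the exons of CCT5, 1734 bases (30.8%) overlap the long noncoding RNA gene ENSG00000271980, which received 4258 reads, or 1670 per kilobase against 3098 for CCT5. CCT4 shares 10.2% of its exon bases with the long noncoding RNA gene ENSG00000236498, which received 2000 reads. TCP1 shares 454 bases (9.30%) with ACAT2, an enzyme gene of lipid metabolism whose 3′ end meets its own, and both had similar density, at 3619 and 3558 reads per kilobase. Without the strand setting of the counting, reads in these overlaps cannot be divided between partners. CCT4 also shares 6.70% of its exon bases with ENSG00000286360, and CCT8 shares 2.54% with ENSG00000286018. Both are long noncoding RNA genes on the opposite strand that have no entry in the counts. CCT2, CCT3, CCT6A and CCT7 shared no exon with another gene.

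Small nucleolar RNAs, which guide the modification of other RNAs, lie in introns of the canonical transcripts of TCP1 and CCT6A. SNORA20 and SNORA29 in introns 9 and 4 of TCP1 had 6, 2 and 1 reads and no read, respectively. In other transcripts of TCP1, however, exons on the same strand cover all 140 bases of SNORA29 and 12 bases of SNORA20, so that reads there may have been counted for TCP1 and the count of 0 does not show that SNORA29 is absent. SNORA22B and SNORA15 in introns 3 and 10 of CCT6A had 5, 5 and 5 reads and 2, 0 and 0 reads. Their reads per kilobase, up to 109 for SNORA22B, were far below the 3982 of CCT6A and the 3558 of TCP1. These small RNAs are 132 to 140 bases long, and how well the preparation of RNA and libraries retained RNAs of that length was not tested. Their reads are therefore no measure of their level relative to the host genes.

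Several CCT genes start head to head with another gene, and their neighbors were examined after this was noticed in the annotation. A protein-coding gene on the opposite strand had its canonical start within 1000 bases upstream for 5 of the 9 CCT genes, and for 9.37% of the protein-coding genes. For CCT3, CCT6A and CCT6B, the longest stretch between both canonical starts that lies outside annotated exons is given. It holds 191 of the 233 bases between the starts for CCT3, 80 of 320 for CCT6A and 79 of 79 for CCT6B. The sequences are in GRCh38, 5′ to 3′ on the strand of the CCT gene. Capitals mark the CCAAT box, a promoter element read on either strand (CCAAT or ATTGG).
CCT3 and TSACC (chr1:156338312-156338502, minus strand): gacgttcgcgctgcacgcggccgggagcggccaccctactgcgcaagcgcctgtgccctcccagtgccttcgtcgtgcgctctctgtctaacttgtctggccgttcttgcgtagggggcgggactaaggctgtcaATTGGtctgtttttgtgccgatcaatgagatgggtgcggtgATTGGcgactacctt
CCT6A and PSPH (chr7:56051605-56051684, plus strand): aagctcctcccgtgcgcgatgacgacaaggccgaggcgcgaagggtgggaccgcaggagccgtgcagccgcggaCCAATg
CCT6B and ZNF830 (chr17:34961461-34961539, minus strand): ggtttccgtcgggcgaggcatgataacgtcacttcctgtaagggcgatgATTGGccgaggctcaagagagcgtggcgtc
The stretch held 2 CCAAT boxes beside CCT3, 1 beside CCT6A and 1 beside CCT6B. The longest such stretch between the canonical starts of TCP1 and MRPL18 is 406 of 864 bases long, with 1 CCAAT box. It lies within the annotated span of MRPL18 and is not printed. CCAAT boxes in other bases between the starts were not counted here.

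The genes of each pair differed in level. The starts of TCP1 and of MRPL18, a protein of the mitochondrial ribosome, lie 864 bases apart, and TCP1 was 2.37 times higher than MRPL18 at 190 ± 8.40 TPM (SD, n = 3). CCT6A was 9.90 times higher than PSPH, an enzyme of serine synthesis, at 51.0 ± 2.08 TPM and 320 bases away. CCT5 was 25.7 times higher than ATPSCKMT, a mitochondrial lysine methyltransferase, at 15.3 ± 1.24 TPM and 391 bases away. CCT3 was 89.3 times higher than TSACC, a cochaperone gene, at 6.52 ± 1.06 TPM and 233 bases away. CCT6B was the exception in direction: ZNF830, which starts 79 bases away and had 38.4, 37.5 and 33.4 TPM, was 37.2 times higher, a difference of -5.27 ± 0.41 in log2 from CCT6B. ZNF830 lies within the annotated span of CCT6B, and TSACC within that of CCT3. These neighbors are thus upstream of the canonical start, but not of the whole annotated CCT gene. Whether this affected the counts was not tested. The low level of CCT6B stood beside a neighbor in the high class upstream of its canonical start.

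**Figure D5:**
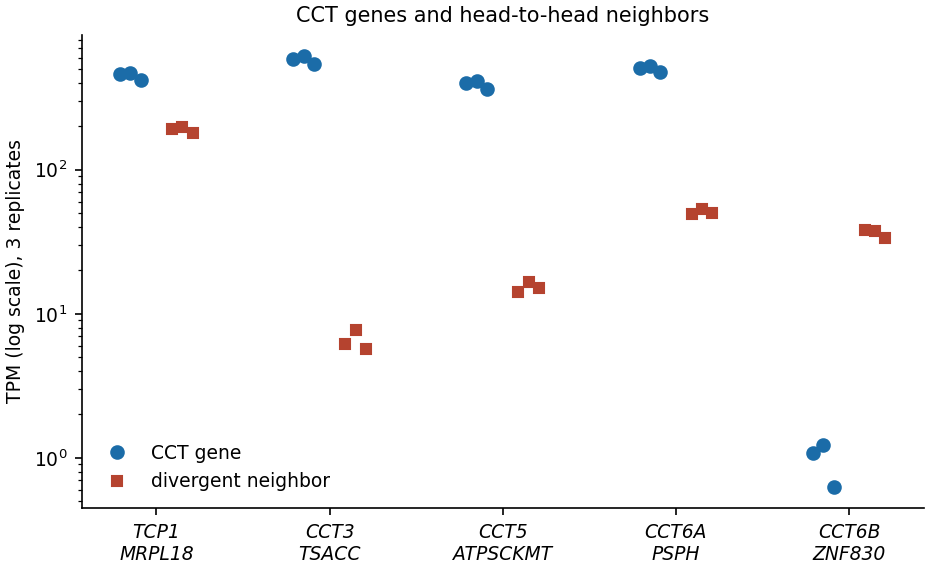
TPM in the 3 replicates (y axis, log scale) of the 5 CCT genes with a head-to-head neighbor (circles) and of that neighbor (squares), one pair per position on the x axis. The CCT gene is the higher of the pair for TCP1, CCT3, CCT5 and CCT6A, and the lower for CCT6B, with no overlap between the genes of any pair.

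The letters of common promoter elements were also counted in RefSeq promoter windows of GRCh38.p14, short stretches around each start. Windows were available for 8 of the CCT genes, CCT6A not among them, and for 35116 starts in all. Both strands were read. A CCT gene was counted where any of its windows matched, and CCT2 and CCT4 had 2 windows each. The share of all windows is per single window, so that the measures are not quite alike. The CCAAT box was in windows of 5 of the 8 genes (TCP1, CCT2, CCT3, CCT6B and CCT8) and in 34.6% of all windows, and the GC box GGGCGG in 6 of the 8 and in 45.0% of all. The ETS core CCGGAAG was found for CCT2 and in 10.3% of all windows. Paired heat shock sites in the form GAANNTTC were found for TCP1 and CCT2, with 6.77% of all windows, and in the form TTCNNGAA for CCT4 and CCT6B, with 7.74%. CCT6B, with the lowest level, thus had the CCAAT and GC boxes as TCP1, CCT2, CCT3 and CCT8 did. Such matches describe letters in a window and are no measure of factor binding.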

How the data were processed

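RNA-seq of total RNA from 3 replicates of H9 cells was used. Reads were trimmed by the authors and mapped to GRCh38 (the submitters' processing notes name Trim Galore 0.4.4, TopHat2 2.1.1 and Cufflinks 2.2.1), and the deposited values are raw counts of reads per gene, not normalized. The counting tool, its annotation and its strand setting are not given in the sources read. Replicates were the samples numbered so in the labels, with totals of 10390984, 12024802 and 8655155 counts, and intervals cover counting error only.

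Gene identifiers were matched to GENCODE release 44 (56948 of 58051 genes matched, and the rest held up to 0.294% of counts), divided by the union of exons and scaled to TPM. The TPM that the study obtained with Cufflinks was not used. With 1 condition no contrast was fitted. Each gene's counts were tested against library totals by chi-square with Benjamini-Hochberg adjustment over 18451 genes, at an adjusted p of 0.05. The chi-square and class steps were tested on simulated data. Scipy 1.17.1, biopython 1.88, pandas 2.3.3 and numpy 2.4.6 in Python 3.11.15 were used, with scaling factors from edgeR 4.0.16 and DESeq2 1.42.0 in R 4.3.3. Identity is over aligned bases of canonical transcripts or coding sequences.

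Alternatives were other gene lengths, scalings, filters, CPM, thinned counts, GC correction in 20 bins, pseudogene reads added to their parents, and leaving out each replicate. Genes named were the 9 members, fixed lists of cofactors, clients, complexes and markers, pseudogenes with at least 10 reads, intronic small RNAs, overlapping genes and the 5 genes nearest in level. The members and lists were chosen with earlier results of these data known. The comparison of genes of like depth and GC content, the sides of the ring, the head-to-head neighbors (named with their values) and the promoter letters were added after seeing the data. Protein sequences were not used here, and 1 of the upstream sequences is not reported here.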

Additional observations from a re-analysis of the deposited data

How the results depend on the processing

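With the canonical transcript, the highest of the 8 genes exceeded the lowest by 1.99 times, their coefficient of variation was 20.9%, CCT6B was at 0.300% of CCT6A, and the CCT median was 5.00 times that of prefoldin, 1.69 times that of the 20S core and 1.83 times that of MCM2-7. With the longest transcript these values were 1.92 times, 19.7%, 0.165%, and 6.38, 2.14 and 2.08 times, and under both lengths 2 of the 9 genes kept their place in the order. CPM, which is not per length, gave 1.65 times and 17.1%, and counts thinned to 10% a coefficient of 13.0%. The number of CCT genes that differed between libraries was 2 with GC-corrected library sizes and from 0 to 7 when 1 replicate was left out, 0 of them without replicate 3, and 7 with TMM or DESeq2 sizes and other filters. The number in the high class was 8 throughout. Without 1 replicate, the ratio of the highest to the lowest was 1.48 to 1.49. No paired analysis was possible because only 1 condition was measured. At 6 to 16 reads, the level of CCT6B is known only roughly.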
